A study of Homo sapiens with 16 samples.

Results

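The genes described here are the core circadian clock genes measured in Caco-2 cells, a human colon carcinoma line that grows as an intestinal epithelium. They are PER1, PER2, PER3, CRY1, CRY2, ARNTL (also called BMAL1), CLOCK, NR1D1, NR1D2 and DBP. They were chosen by name, as every array probe whose gene name equals one of these 10 symbols, which gave 20 of the 41000 distinct probes on the array, and all 20 were among the 40982 probes tested. Undifferentiated cells, seeded in low-serum medium, were washed on the third day and then stimulated for 6 h in fresh medium of the same kind. One group received gliadin, the wheat protein fraction that triggers coeliac disease, after digestion with pepsin and trypsin (PT-G). Another received the same enzyme preparation made without any substrate (PT). According to the paper, heat had inactivated both enzymes before use, and an activity assay with a trypsin substrate checked this. A further group received the synthetic gliadin peptide p31-43 at 150 µg/ml, and the control cells stayed in medium alone (MED-CTL). No genetic change was made in any group, all cells were of 1 line, and all were collected with trypsin, so the control cells also met that enzyme at harvest. Each group held 4 arrays, and the study made 4 independent experiments with cells a few passages apart. The p-values below thus measure the spread between repeat cultures of this line. Without a block for the date or slide in the fit, that spread includes shifts shared by arrays of the same date or slide.

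The circadian clock is a transcriptional feedback loop present in most cells, intestinal epithelium included. The proteins CLOCK and ARNTL form an activator that binds E-box sequences and switches on the PER and CRY genes, whose products return to block that activator, while NR1D1 and NR1D2 repress ARNTL and DBP carries the rhythm to genes outside the loop. Cultured cells run this loop out of step with each other until a stimulus, such as serum, a glucocorticoid, or signals through ERK and CREB, raises PER1 quickly and resets them. The hour of harvest was not given in the sources used here, and a single time point cannot tell a changed phase from a changed level. In such bulk RNA, a gene read in fewer cells and a gene with less RNA per cell also cannot be told apart.

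PER1 and NR1D1 are the members whose level moved most, so the reference sequence before their start sites is shown first, with PER2, the closest relative of PER1, for comparison. The RefSeq promoter table (GRCh38.p14) held a promoter for all 10 members and 15 promoters in all. The 250 bases before each start were searched on both strands for 8 motifs, and each match is in capitals below, 5′ to 3′ on the gene's strand.
PER1, chr17:8152405-8152654, minus strand: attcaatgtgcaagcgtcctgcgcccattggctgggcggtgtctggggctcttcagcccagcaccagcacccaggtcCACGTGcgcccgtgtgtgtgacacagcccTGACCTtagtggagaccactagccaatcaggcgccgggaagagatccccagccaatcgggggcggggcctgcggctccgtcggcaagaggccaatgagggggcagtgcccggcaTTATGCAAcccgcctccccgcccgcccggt
NR1D1, chr17:40100590-40100839, minus strand: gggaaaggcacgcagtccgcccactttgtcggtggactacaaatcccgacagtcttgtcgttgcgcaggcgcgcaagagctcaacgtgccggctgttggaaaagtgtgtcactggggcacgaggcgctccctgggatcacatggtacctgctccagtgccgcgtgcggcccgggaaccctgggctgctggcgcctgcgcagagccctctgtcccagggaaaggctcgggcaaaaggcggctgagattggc
PER2, chr2:238288611-238288860, minus strand: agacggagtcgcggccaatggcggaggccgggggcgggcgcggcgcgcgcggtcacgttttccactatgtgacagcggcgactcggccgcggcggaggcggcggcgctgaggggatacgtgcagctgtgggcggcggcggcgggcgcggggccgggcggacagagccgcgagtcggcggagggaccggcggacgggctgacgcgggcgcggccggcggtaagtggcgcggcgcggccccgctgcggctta
The PER1 window held 1 E-box (CACGTG) beginning 173 bases before the start, 1 D-box of the form TTATGCAA at 30 bases, the kind of element DBP binds, and the nuclear receptor sequence AGGTCA on the opposite strand at 144 bases. Of all 35116 promoters of this length, 6.34% held the E-box, 0.792% that D-box and 12.1% the AGGTCA sequence. The windows of NR1D1 and PER2 held none of the 8 motifs. Neither the cyclic AMP response element bound by CREB (TGACGTCA, in 1.65% of all promoters), nor the AP-1 site (TGANTCA, 6.57%), nor the CArG box of serum response factor (1.16%) occurred in any of the 15 member windows. The shorter form TGACGT, which is part of TGACGTCA, was in 1 of them, for NR1D2, against 7.1% of all promoters. The E-box was also present before NR1D2, the D-box TTATGTAA (0.834% of all promoters) before NR1D2 and PER3, and AGGTCA in both windows of CRY2. A match, or the lack of one, is only a description of the letters in these 250 bases. Sequence outside the windows was not searched.

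Signal was sufficient for nearly every member. All 16 arrays had signal well above background for 18 of the 20 probes, 14 had it for the dimmer PER2 probe, and 0 for the dimmer PER1 probe, which therefore gives no level for PER1. The arrays had a median foreground intensity of 153 to 410 against a local background of 48 to 65, with 27660 to 33947 spots well above background. The file names carry 4 dates, each with 1 array of each group, called file dates 1 to 4 here. PT replicate 3 and p31-43 replicate 4, on a slide of their own, had the brightest signal. Without PT replicate 3 the counts of member probes called below were the same 4 for PT and 0 between PT-G and PT. Of 10 epithelial markers 9 (VIL1, CDX2, KRT8, KRT18, KRT20, CDH1, CDH17, EPCAM and LGALS4) were well above background on all 16 arrays, and CDX1 on 1. Of 6 markers of other cell types, PTPRC and COL1A2 were well above background on 0 arrays, DES on 14, and PECAM1, COL1A1 and ACTA2 on all 16, so 4 of the 6 had signal.

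Of the 10 members, NR1D1, PER1 and CRY2 differed from MED-CTL under the enzyme digests, CRY2 on only 1 of its 3 probes. The CRY2 call was lost with median scaling and with the background-subtracted signal. NR1D1 was 2.81-fold higher in PT-G than in MED-CTL cells and 2.46-fold higher in PT cells, PER1 was 1.66-fold and 1.73-fold higher, and the brightest CRY2 probe was lower, at 0.767 and 0.792 of the control. At the nominal p under 0.01 used throughout (limma moderated test, fitted over all probes), these 3 genes passed in both comparisons, 2 higher and 1 lower, and the other 7 did not. By probes, 4 of 20 passed with PT-G, where 3.44% of all 40982 probes did, and 4 of 20 with PT, where 3.64% did. After adjustment over all probes, 1 member probe passed 0.05 with PT-G (background 0.944%) and 0 with PT (background 0.82%, 4 member probes at an unadjusted p under 0.05). The median log2 difference over the brightest probes of the 10 members was 0.25 with PT-G and 0.09 with PT. Over all 20 member probes it was 0.03 and 0.06, beside −0.01 for the median of all probes in each comparison.

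NR1D1 encodes REV-ERBα, a haem-binding nuclear receptor that represses ARNTL. On its brighter probe, the MED-CTL arrays of file dates 1 to 4 read 10.06, 11.12, 10.06 and 10.39 on the log2 intensity scale. The p31-43 arrays read 10.36, 11.26, 9.98 and 10.33, the PT arrays 11.69, 12.11, 11.43 and 11.59, and the PT-G arrays 11.80, 12.35, 11.46 and 11.96. Every PT and PT-G array lay above every MED-CTL and p31-43 array, and the array of file date 2 was the highest of each group. The log2 difference from MED-CTL was 1.49 for PT-G (SE 0.29, n = 4 arrays each, limma, adjusted p = 0.0271) and 1.30 for PT (SE 0.29, limma, adjusted p = 0.0564). Within single dates it was 1.75, 1.23, 1.41 and 1.57 for PT-G and 1.63, 0.99, 1.37 and 1.20 for PT. Each of these values sets 1 array against 1 array, and each was upward. The PT and MED-CTL arrays of file date 3 lay on different slides. Their deviations from the group means correlated at −0.0176 over all probes. The file date as a block gave limma adjusted p = 4.5e-05 for PT-G and 9.86e-05 for PT, and over 20 alternatives the adjusted p ranged from 4.5e-05 to 0.155 and from 9.86e-05 to 0.189.

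The other NR1D1 probe moved the same way. It averaged 7.63 ± 0.49 (SD, n = 4) in MED-CTL, 7.81 ± 0.47 in p31-43, 8.72 ± 0.27 in PT and 8.71 ± 0.53 in PT-G. The difference was 1.08 for PT-G (SE 0.30, limma, adjusted p = 0.146) and 1.09 for PT (SE 0.30, adjusted p = 0.141), and each passed the nominal threshold. PT did not overlap MED-CTL on this probe, while the PT-G array of file date 3, at 7.98, fell below the highest MED-CTL array, at 8.32. The nominal p of this probe rose past 0.01 when any of 3 arrays was left out. With PT-G the differences were then 0.97 (MED-CTL replicate 2 removed), 0.95 (MED-CTL replicate 3 removed) and 0.90 (PT-G replicate 2 removed), and a fit of these 2 groups alone also lost the call. With PT they were 0.98 (MED-CTL replicate 2 removed), 0.96 (MED-CTL replicate 3 removed) and 0.96 (PT replicate 2 removed). NR1D1 overlaps THRA, a thyroid hormone receptor gene, on the opposite strand, and the brighter THRA probe differed by −0.15 (SE 0.17) with PT-G and −0.12 (SE 0.17, limma adjusted p = 0.902) with PT.

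NR1D2, the close relative of NR1D1 with the same repressor role, did not pass. Its brighter probe averaged 9.01 ± 0.10 (SD, n = 4) in MED-CTL, 9.17 ± 0.09 in p31-43, 9.08 ± 0.16 in PT and 9.19 ± 0.14 in PT-G. The 95% interval of the difference from MED-CTL ran from −0.02 to 0.38 for PT-G and from −0.13 to 0.27 for PT, so a change of the size seen for NR1D1 lay outside both. All p31-43 arrays of this probe, from 9.10, lay above the MED-CTL arrays, up to 9.09, by a difference of 0.16 (SE 0.09) that did not pass in limma. Of all probes, 1.39% had p31-43 and MED-CTL arrays that did not overlap, and this was the 1 member probe of 20 that did so. The second NR1D2 probe differed by −0.07 with PT-G and −0.26 with PT, and within file date 3 the PT array was 1.07 below MED-CTL.

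**Figure D1:**
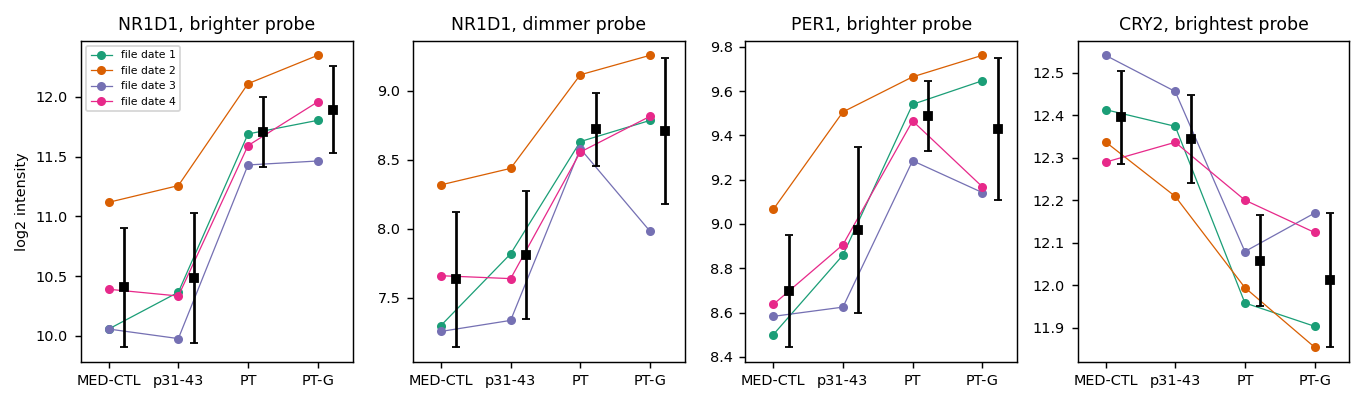
Log2 intensity (y axis) of the NR1D1, PER1 and CRY2 probes in the 4 groups (x axis), with 1 coloured line per file date and black squares with bars for the mean ± SD of 4 arrays. On the brighter NR1D1 probe the lowest PT array, at 11.43, lay above the highest MED-CTL array, at 11.12, while all PT and PT-G arrays of CRY2 lay below all MED-CTL arrays.

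PER1 is a period gene that responds quickly to resetting signals. Its brighter probe read 8.50, 9.07, 8.58 and 8.64 in MED-CTL on file dates 1 to 4, and 8.86, 9.51, 8.62 and 8.91 in p31-43. It read 9.54, 9.66, 9.29 and 9.47 in PT and 9.65, 9.76, 9.14 and 9.17 in PT-G. The PT and PT-G arrays all lay above the MED-CTL arrays, whereas the p31-43 arrays overlapped both. The log2 difference from MED-CTL was 0.73 for PT-G (SE 0.19, n = 4 arrays each, limma, adjusted p = 0.121) and 0.79 for PT (SE 0.19, limma, adjusted p = 0.0883). A block for the file date gave limma adjusted p = 0.00253 with PT-G and 0.00174 with PT, and over 20 alternatives it ranged up to 0.353 and 0.262, with the nominal p under 0.01 in all of them. For p31-43 the difference was 0.28 (SE 0.19, 95% interval −0.14 to 0.69), with a higher value on each of the 4 dates.

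PER2 and PER3, the other period genes, did not pass. PER2 on its brighter probe averaged 10.08 ± 0.30 (SD, n = 4) in MED-CTL, 9.89 ± 0.35 in p31-43, 10.10 ± 0.18 in PT and 10.36 ± 0.37 in PT-G. The 4 groups overlapped, and the interval of the difference from MED-CTL was −0.16 to 0.72 for PT-G and −0.42 to 0.46 for PT. PER3 was read by 3 probes, and the brightest differed by 0.01 with PT-G and −0.12 with PT (limma, adjusted p = 0.89 for PT). The dimmest PER3 probe differed by −0.32 (SE 0.18) and −0.29 (SE 0.18), with lower values on each of the 4 dates in both comparisons. Its nominal p was under 0.01 only with the file date (limma, adjusted p = 0.0595 for PT-G and adjusted p = 0.0823 for PT) or the slide as a block, and for PT-G also with the replicate block (adjusted p = 0.0943). The other PER3 probes did not pass with the file date as a block.

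CRY1 and CRY2 are the cryptochromes that join the PER proteins in repression, and of them CRY2 fell on 1 of its 3 probes while CRY1 did not pass. The brightest CRY2 probe read 12.41, 12.34, 12.54 and 12.29 in MED-CTL on file dates 1 to 4, and 12.37, 12.21, 12.46 and 12.34 in p31-43. It read 11.96, 11.99, 12.08 and 12.20 in PT and 11.90, 11.85, 12.17 and 12.12 in PT-G. Both digest groups lay wholly below MED-CTL, with the narrowest gap on file date 4. The log2 difference was −0.38 for PT-G (SE 0.09, n = 4 arrays each, limma, adjusted p = 0.0711) and −0.34 for PT (SE 0.09, limma, adjusted p = 0.127). This call was lost when the background-subtracted signal was used (−0.40 and −0.37, limma adjusted p = 0.471 and adjusted p = 0.501) and with median scaling (−0.31 and −0.29, adjusted p = 0.627 and adjusted p = 0.605). The other CRY2 probes did not pass, at −0.26 and 0.00 for PT-G and −0.24 and −0.04 for PT, so the change rests on 1 of 3 probes. CRY1 differed in the other direction without passing, by 0.31 (SE 0.23) on the brighter probe and 0.39 (SE 0.17, limma, adjusted p = 0.569) on the dimmer probe with PT-G, and by 0.11 and 0.10 with PT.

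The activators ARNTL and CLOCK and the output factor DBP did not pass either. ARNTL averaged 9.70 ± 0.22 (SD, n = 4) in MED-CTL, 9.76 ± 0.30 in p31-43, 9.99 ± 0.26 in PT and 10.11 ± 0.35 in PT-G. It was higher with PT-G on each of the 4 dates, by 0.38, 0.15, 0.38 and 0.72, and the difference of 0.41 (SE 0.19, limma, adjusted p = 0.647) reached a nominal p under 0.01 only with a block for the file date (adjusted p = 0.0612), the slide (adjusted p = 0.0324) or the replicate number (adjusted p = 0.12). For PT the ARNTL difference was 0.29 (SE 0.19, limma, adjusted p = 0.765), also higher on each date. CLOCK averaged 8.08 ± 0.35 in MED-CTL and 8.30 ± 0.28 in PT-G, with an interval of the difference from −0.21 to 0.64. DBP, read by 2 probes, differed by −0.09 and −0.19 with PT-G and by 0.20 and 0.03 with PT, none of which passed.

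**Figure D2:**
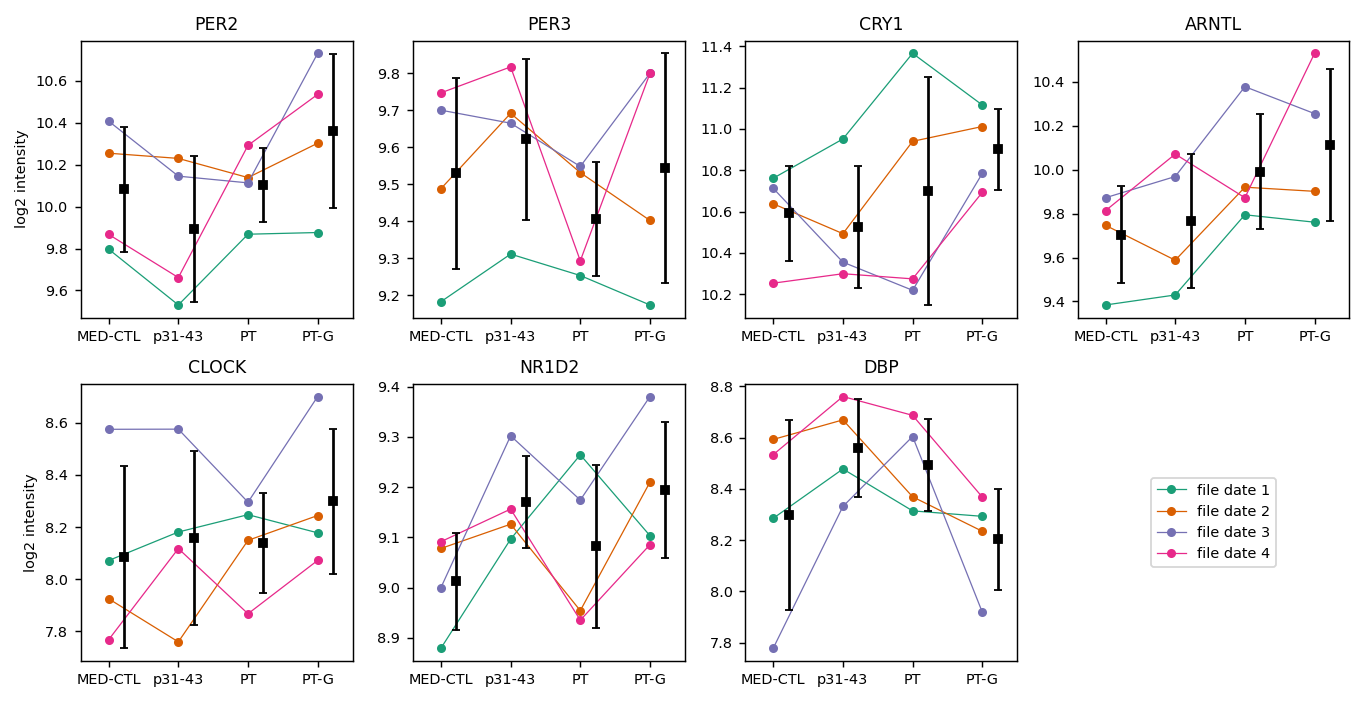
Log2 intensity (y axis) of the brightest probe of the 7 other clock genes in the 4 groups (x axis), with 1 coloured line per file date and black squares with bars for the mean ± SD of 4 arrays. The groups overlapped for each gene except MED-CTL and p31-43 for NR1D2.

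With the file date as a block, 6 of 20 member probes passed p under 0.01 with PT-G (background 9.16%) and 5 of 20 with PT (background 10.3%). After adjustment 4 of 20 passed 0.05 with PT-G (background 5.75%) and 4 of 20 with PT (background 6.56%). These 4 were both NR1D1 probes, the brighter PER1 probe and the brightest CRY2 probe. The groups did not overlap for 3 member probes with PT-G (background 3.87%) and for 4 with PT (background 5.08%).

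The gliadin peptide and the gliadin in the digest were each set against their control. With p31-43 against MED-CTL and no block, 0 of 20 member probes passed p under 0.01 in limma, where 0.388% of all probes did. In that fit 0 had an unadjusted p under 0.05. With the file date as a block 0 again passed p under 0.01, where 567 of all probes did. The brighter PER1 probe then had an unadjusted p of 0.0256 (limma, adjusted p = 0.804). The largest difference, 0.28, was that of PER1. Between PT-G and PT without a block, again 0 of 20 passed (background 0.0903%), with 0 at an unadjusted p under 0.05. With the file date as a block 0 passed p under 0.01 here too, where 130 of all probes did. The brighter DBP probe then had an unadjusted p of 0.0433 (limma, adjusted p = 0.899). NR1D1 differed between them by 0.19 (SE 0.29, 95% interval −0.44 to 0.81), PER1 by −0.06 (SE 0.19, interval −0.48 to 0.36) and CRY2 by −0.05 (SE 0.09, interval −0.24 to 0.15). PER2 differed by 0.26 (SE 0.21) and DBP by −0.29 (SE 0.17), the latter with the smallest p of the 20 probes.

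Setting the digests against the peptide arrays, a comparison chosen after the data were seen, showed where those treatments differed directly. NR1D1 was 1.41 higher in PT-G than in p31-43 cells (SE 0.29, limma, adjusted p = 0.0312) and 1.22 higher in PT (SE 0.29, limma, adjusted p = 0.0813). The CRY2 difference was −0.33 in PT-G (SE 0.09, limma, adjusted p = 0.124) and −0.29 in PT (SE 0.09, limma, adjusted p = 0.257), both at a nominal p under 0.01. PER1 did not pass without a block, at 0.46 in PT-G (SE 0.19, limma, adjusted p = 0.494) and 0.51 in PT (SE 0.19, adjusted p = 0.448), and passed with the file date as a block (adjusted p = 0.0294 and adjusted p = 0.019). So did the dimmest PER3 probe, at −0.40 in PT-G (limma, adjusted p = 0.0205) and −0.37 in PT (adjusted p = 0.0361). With that block the brighter PER2 probe, at 0.47 (limma, adjusted p = 0.0614), and the dimmer CRY1 probe, also at 0.47 (limma, adjusted p = 0.0845), reached a nominal p under 0.01 in PT-G. The brighter NR1D1 probe passed with the block too (limma, adjusted p = 5.05e-05 in PT-G and adjusted p = 0.000139 in PT). So did the brightest CRY2 probe (adjusted p = 0.0162 and adjusted p = 0.0385). The share of all probes that passed with the block was not taken against p31-43, so these block calls have no background to be read against. Against MED-CTL the block raised that share from 3.44% to 9.16% for PT-G and from 3.64% to 10.3% for PT. In each of these comparisons 3 of 20 member probes passed p under 0.01 without a block, with a background of 3.73% for PT-G and 3.15% for PT. On the brighter NR1D1 probe the order of levels was MED-CTL, p31-43, PT and PT-G, with the steps at either end below the SD between arrays. On the dimmer probe PT, at 8.72, and PT-G, at 8.71, stood in the reverse order, by less than that SD.

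**Figure D3:**
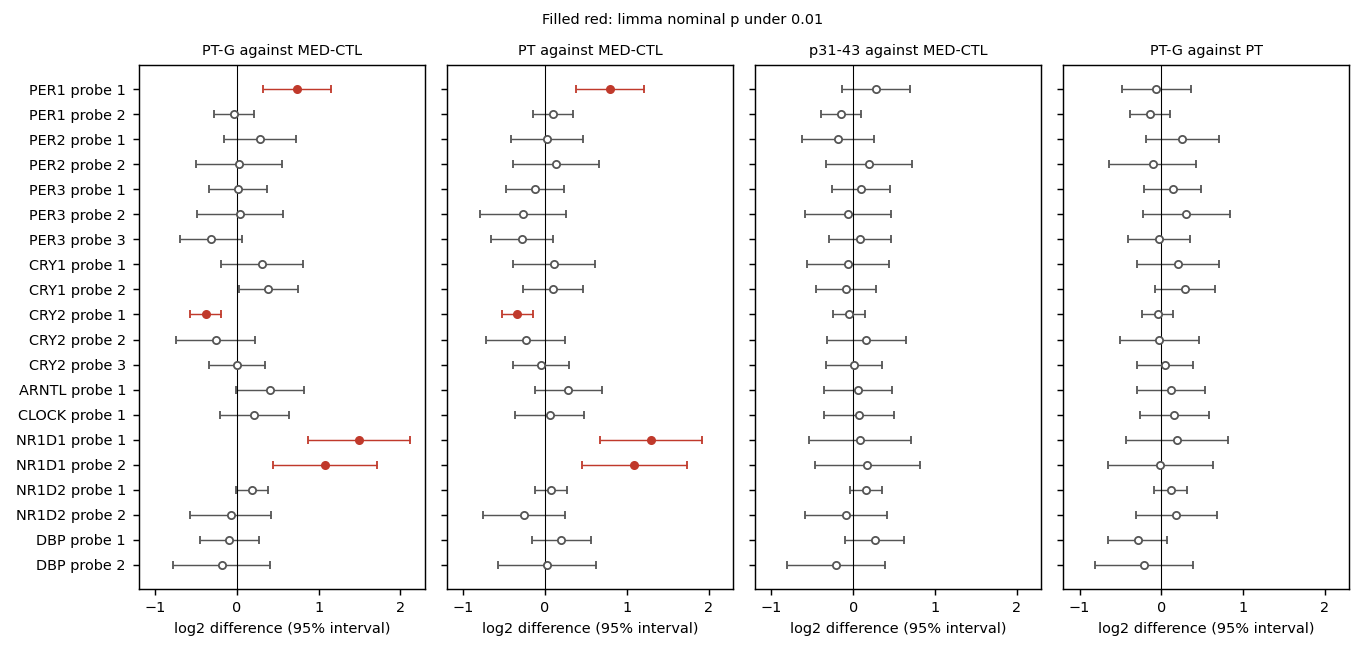
Log2 difference (x axis) of each of the 20 clock gene probes (y axis, numbered from the brightest probe of a gene) in 4 comparisons, with 95% intervals from limma. Filled red points passed a nominal p under 0.01: 4 probes with PT-G, 4 with PT and 0 in the comparisons of p31-43 with MED-CTL and of PT-G with PT.

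Most clock genes differed between file dates, some by as much as they differed between treatments. In a limma F test of the 4 file dates, beside the groups, 14 of 20 member probes had an adjusted p under 0.05, against 46.9% of all probes. All 10 members had such a probe when any probe of a gene was counted, and no share of all genes was taken by that rule. The brightest probes of CRY2, NR1D2 and DBP did not pass (limma F test, adjusted p = 0.0952, adjusted p = 0.445 and adjusted p = 0.0664). Over the 14 probes that passed, the range between dates, averaged over the groups, ran from 0.45 to 0.99 on the log2 scale. NR1D1 was 0.59 above its group means on file date 2 and 0.39 below (−0.39) on file date 3 (limma, adjusted p = 0.00024), and its dimmer probe gave 0.56 and −0.43. PER1 followed the same order of highest and lowest date, with 0.35 on file date 2 and −0.24 on file date 3 (limma, adjusted p = 0.00531).

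Other members had other dates. ARNTL was lowest on file date 1 and highest on file date 3, at −0.30 and 0.23 (limma, adjusted p = 0.00773), and PER2 was so too, at −0.34 and 0.24 on its brighter probe. CLOCK stood 0.37 above its group means on file date 3. CRY1 was highest on file date 1, at 0.37, and lowest on file date 4, at −0.30 (limma, adjusted p = 0.00937). The brightest CRY2 probe, which changed with the digests, ranged by 0.21 between dates (limma, adjusted p = 0.0952). Probes of 1 gene did not always share a date: the dimmer PER2 probe was highest on file date 2 and lowest on file date 3. File dates 1 and 2 each had their 4 arrays on 1 slide, so date and slide cannot be told apart there.

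**Figure D4:**
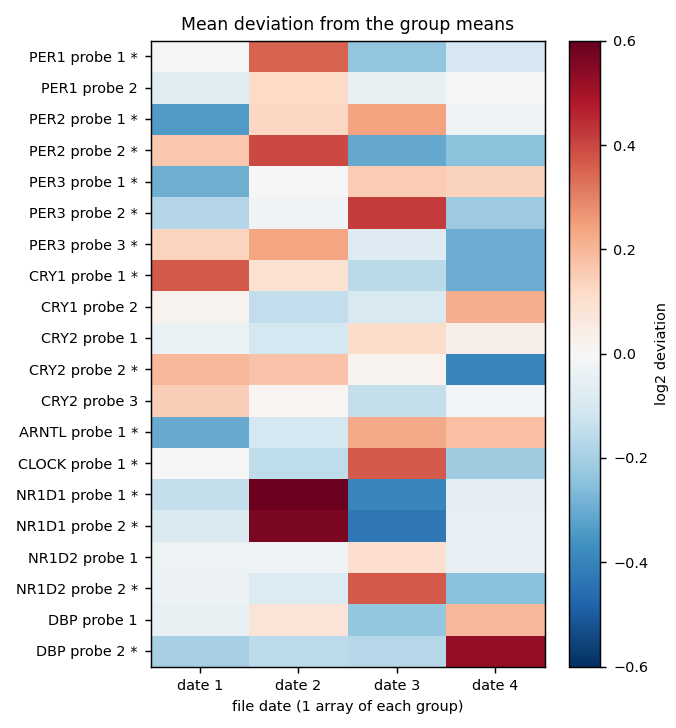
Deviation of each clock gene probe (rows) from its group means on the 4 file dates (columns), averaged over the 4 groups, with red above and blue below on a log2 colour scale and a star where the limma F test gave an adjusted p under 0.05. NR1D1 and PER1 stood highest on file date 2, at 0.59 and 0.35 on their brighter probes.

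The treatment differences themselves were compared between the earlier 2 and the later 2 file dates. None of the 20 member probes passed p under 0.01 in limma for PT-G (0.583% of all probes did), PT (1.02%) or p31-43 (0.561%), and 1 of the 60 tests had an unadjusted p under 0.05. That was the brighter CRY1 probe under PT, whose difference changed by −0.69 (SE 0.27) from the earlier to the later dates. For NR1D1 the change between periods was 0.00 for PT-G and −0.03 for PT on the brighter probe (SE 0.55 for each). On the dimmer probe it was −0.27 for PT-G and 0.04 for PT (SE 0.54 for each). With errors this wide, the values do not show that the effect was equal in both periods.

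Other genes tied to the clock were read from a list of 21, of which 20 had a probe. With PT-G, 2 rose and 0 fell at p under 0.01, and with PT 1 rose and 1 fell, beside 3.44% and 3.64% of all probes called. With the file date as a block these counts were 3 and 0 with PT-G (9.16% of all probes) and 4 and 2 with PT (10.3%). BHLHE40, an E-box repressor of the CLOCK and ARNTL activator, was the strongest in both. It read 7.95, 8.21, 7.97 and 7.63 in MED-CTL on file dates 1 to 4, against 9.48, 9.54, 9.42 and 9.28 in PT-G and 9.57, 9.31, 9.33 and 9.42 in PT. Both digest groups lay well above the control, by 1.49 for PT-G (SE 0.13, limma, adjusted p = 0.000151) and 1.47 for PT (SE 0.13, limma, adjusted p = 0.000145). With PT-G, FBXW11, a ubiquitin ligase subunit that targets PER proteins, was also higher, by 0.31 (SE 0.09, adjusted p = 0.141 in limma). TIMELESS, the relative of an insect clock gene, fell by 0.33 on the log2 scale with PT (−0.33, SE 0.09, limma, adjusted p = 0.158). Of 8 clock output genes, KLF10 rose with both digests, by 1.23 for PT-G (SE 0.17, limma, adjusted p = 0.00403) and 0.93 for PT (SE 0.17, adjusted p = 0.0231), and the other 7 did not pass. With the file date as a block 2 rose with each digest and 1 fell with PT. The second riser was NFIL3, a repressor that competes with DBP, at 0.41 with PT-G (SE 0.11, limma, adjusted p = 0.0427) and 0.42 with PT (SE 0.11, adjusted p = 0.0379). By direction alone, 4 of the 8 were higher and 4 lower with PT. HLF was among the lower ones, with a mean of 9.12 in PT and 9.63 in MED-CTL.

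Genes induced early through ERK and CREB moved in the same arrays. Of 17 such genes, 10 rose and 0 fell at p under 0.01 with PT-G, 10 rose and 0 fell with PT, and 0 passed with p31-43. Of all probes, 3.44%, 3.64% and 0.388% passed. This list, like the other gene lists here, was chosen with earlier results of these data known. Its counts therefore describe the list and are no independent test of it. With the file date as a block 12 rose with PT-G and 11 with PT, and 0 fell (9.16% and 10.3% of all probes called). The median log2 difference of the 17 genes was 1.12 with PT-G and 0.97 with PT, beside −0.01 for all probes in each. The summed level of the list, on the log2 scale, lay between 17.32 and 18.08 in the MED-CTL arrays, 17.59 and 18.02 in p31-43, 18.27 and 18.46 in PT and 18.26 and 18.75 in PT-G. This is the log2 of summed linear intensities, so the brightest genes weigh most. IER2 alone averaged 16.93 in MED-CTL and 17.43 in PT-G on its brighter probe. IER3 rose by 2.89 (SE 0.24, limma, adjusted p = 7.43e-05) with PT-G, EGR3 by 2.91 (SE 0.34, limma, adjusted p = 0.00136) and NR4A1 by 1.42 (SE 0.17, limma, adjusted p = 0.00138). CREM, the CREB-family gene of the list, was 0.55 higher (SE 0.15, limma, adjusted p = 0.146). FOS did not pass, at 1.01 (SE 0.43, limma, adjusted p = 0.545). The part of these genes in the levels of PER1 and NR1D1 was not tested.

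PER1 is also a glucocorticoid-induced gene, and of 5 others of that kind, 1 passed with PT-G and 1 with PT, where 3.44% and 3.64% of all probes did. It was KLF9 in both, at 0.79 with PT-G (SE 0.16, limma, adjusted p = 0.0346) and 0.55 with PT (SE 0.16, adjusted p = 0.183), while FKBP5 differed by −0.14 and −0.39 and SGK1 by 0.20 and 0.04. With the file date as a block 2 of the 5 rose with PT-G and 3 with PT (9.16% and 10.3% of all probes called), TSC22D3 being added in both and ZBTB16 with PT. Among the epithelial markers 1 of 10 passed, KRT20, a keratin of differentiated enterocytes, at 0.63 (SE 0.12, limma, adjusted p = 0.0251) with PT-G and 0.50 (SE 0.12, limma, adjusted p = 0.0884) with PT, and with the file date as a block 1 other marker fell with PT-G and 2 with PT. The summed level of these 10 markers ranged from 19.26 to 19.59 in MED-CTL, from 19.23 to 19.40 in PT and from 19.22 to 19.55 in PT-G on the log2 scale. In this sum too the brightest genes weigh most. Of the 6 markers of other cell types, 0 passed in limma.

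**Figure D5:**
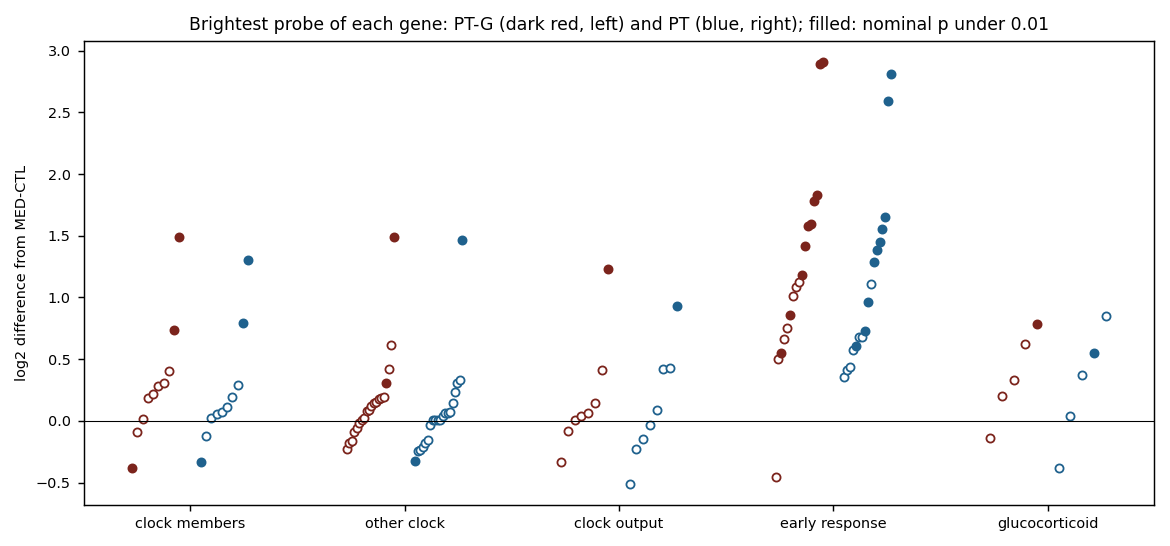
Log2 difference from MED-CTL (y axis) of each gene's brightest probe, by gene list (x axis), for PT-G in dark red and PT in blue, with filled points at a nominal p under 0.01. With PT-G, 3 of the 10 clock genes, 2 of 20 other clock genes, 1 of 8 output genes, 10 of 17 early response genes and 1 of 5 glucocorticoid genes passed. Of all probes, 3.44% passed with PT-G.

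The genes whose pattern was most like that of NR1D1 over the 16 arrays, among 18448 named probes well above background on every array, were EDN1 (Pearson r = 0.979), PDE9A (r = 0.975) and ZFP36 (r = 0.971). Those most like PER1 were AVPI1 (r = 0.955), PDE9A (r = 0.953) and C17orf48 (r = 0.93). With PT-G these differed by 1.63 for EDN1, 0.86 for PDE9A, 1.43 for ZFP36, 0.59 for AVPI1 and 0.47 for C17orf48. The arrays share 4 treatments and 4 dates, so these correlations describe the arrays together and carry no p.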

How the data were processed

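RNA of 16 Caco-2 cultures, 4 per group, was hybridised to 1-colour Agilent arrays. The authors' image analysis gave spot intensity on a linear scale, not normalized. The authors also deposited log2 values, which match quantile-normalized median foreground signals of all spots (largest difference 5e-09). Other columns deposited are marks for controls, outliers and spots above background.

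After removal of 1639 controls among 45015 spots, quantile normalization was applied to the log2 median foreground, with no background correction. Outlier-marked spots were dropped and each probe's spots averaged. A probe needed 3 unmarked arrays in every group, which excluded 18 of 41000. The 40982 others entered a single limma model (limma 3.58.1, R 4.3.3) of all groups, with 2-sided moderated tests adjusted by Benjamini and Hochberg's method over all probes of a comparison. The thresholds were the paper's nominal p of 0.01 and an adjusted p of 0.05. Further limma models tested the file dates and the period. The fits were tested on simulated data with independent noise on each array. For the treatment and period fits these data held no shift shared by a date or slide. The simulation therefore did not check those fits under such shifts.

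Where 1 value per gene was needed, the brightest probe was taken. The 10 members, the lists and the genes most like PER1 and NR1D1 (the 3 highest correlations) were fixed by name or rule, and chosen with earlier results of these data known. Of the listed genes, 1 (TIPIN) had no probe by that name. The number of arrays limits precision, since exact permutation of 4 against 4 cannot give a p under 0.0286. Deviations from group means correlated between arrays of the same replicate number at 0.395 to 0.858 for PT-G with MED-CTL and −0.0176 to 0.41 for PT with MED-CTL, so the numbers were not used to pair all groups. MED-CTL replicates 1 and 2 carry the file dates of replicates 2 and 1 of the other groups. By file date the ranges were 0.625 to 0.858 and −0.0176 to 0.618. Alternatives were the deposited log2 table, the processed signal (75th percentile scaling after background subtraction), normexp (offset 50), the mean foreground, median scaling, a filter on dim probes, marked spots kept, blocks for replicate number, file date or slide, only the 2 groups compared, array weights (statmod 1.5.0), and leaving out each array. The files name no genome build for probe positions, so none are printed.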

Additional observations from a re-analysis of the deposited data

Results flagged for a closer look

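Among 80 sets of 4 arrays (20 clock gene probes in 4 groups), 3 held an array far from the other 3, where chance alone gives about 1 in 20. The dimmer CRY1 probe read 9.56 on the PT-G array of file date 4 and 8.68 to 8.79 on the others, a gap of 0.876 of the range. The middle CRY2 probe read 7.65 on the same PT-G array and 8.48 to 8.62 on the others, a gap of 0.862. The dimmer NR1D1 probe read 9.12 on the PT array of file date 2 and 8.56 to 8.63 on the others, a gap of 0.864. The brighter probes of CRY1 and NR1D1 and the brightest of CRY2 had no such array in these groups.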

How the results depend on the processing

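Each of the 8 single-probe calls was recomputed under 20 alternatives, and none changed sign, while 113 of 1596 values of single probes over all comparisons did so without being called on either side. The count of member probes at p under 0.01 was 4 for PT-G and ranged from 3 to 6, with 6 under the replicate block, the file date and the slide. For PT it was 4 and ranged from 3 to 5, with 4 under the replicate block. It stayed 0 for p31-43 and for PT-G against PT in all alternatives. The replicate block changed no call other than those of ARNTL and the dimmest PER3 probe with PT-G, which it brought under 0.01 (limma adjusted p = 0.12 and adjusted p = 0.0943). The count of member probes that differed between file dates ranged from 11 to 15 around 14. The change of the PT effect between periods, 0 probes, ranged from 0 to 2 when 1 array was left out, being 2 when that was MED-CTL replicate 4 and 1 when it was MED-CTL replicate 2 or PT replicate 2. The cause was not tested. The brighter NR1D1 and PER1 probes kept p under 0.01 in all 20 alternatives of each digest comparison. Signal near background limits the dimmer PER1 and PER2 probes.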
